A study of Homo sapiens with 4 samples.

Results

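The IL-6 family cytokines, their receptors and the STAT3 branch below them were followed in H1299 cells, a human lung carcinoma line, after exposure to ginseng nanoparticles. The family was defined by gene symbol as 9 genes, the ligands LIF, CLCF1, IL6 and IL11, the receptor chains IL6ST, LIFR and OSMR, the transcription factor STAT3 and its inhibitor SOCS3. All 9 were found among the 61541 gene rows, and 8 of them had enough reads to be tested. RNA carrying a poly(A) tail was sequenced from 2 libraries of cells given ginseng nanoparticles and from 2 libraries of cells given phosphate-buffered saline (PBS), all grown in the same serum-containing medium. The labels give no dose, exposure time or plant part, and because the nanoparticle titles contain the word control as well, groups follow the treatment label. Nothing in the labels says that replicates came from separate cultures, and so the p-values measure only the spread among these 4 libraries, and that spread may be technical. The study looked at proliferation and migration of cancer cells, with sequencing aimed at migration genes.

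Most cytokines of this family share the signalling chain gp130, the product of IL6ST. A ligand of this kind brings gp130 together with itself or with a partner such as the LIF receptor (LIFR) or the oncostatin M receptor (OSMR). JAK kinases bound to these chains then phosphorylate STAT3. STAT3 enters the nucleus and switches on target genes, among them SOCS3, whose protein binds gp130 and the JAKs and shuts the signal off. LIF made by carcinoma cells can act on the cells that secrete it. In bulk RNA, fewer cells with a transcript and less of it per cell cannot be told apart.

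Gene counts totalled 24979081 and 24863313 with nanoparticles and 22252686 and 22456882 with PBS. Levels are given as CPM, counts scaled to a common library size with TMM factors, and a count of 3, taken as the floor, corresponded to between 0.120 and 0.135 CPM per library. Of 8 markers of an epithelial lung line, KRT18 had 927 and 915 CPM with nanoparticles and 1019 and 1032 CPM with PBS, and KRT8 and the mesenchymal filament gene VIM were also abundant. EPCAM and KRT19 had fewer than 10 counts in every library, and SFTPC, the lung surfactant gene, had none. Of 5 of these markers that could be tested, KRT18, KRT8 and VIM were lower with nanoparticles (edgeR adjusted p = 0.000526, 0.024 and 0.0137), where 0.83% of all tested genes passed lower. Their log2 fold changes were -0.16, -0.11 and -0.092. The median of genes of like transcript length, treated below, was -0.039 for KRT18 and -0.021 for KRT8 and VIM. Without PBS replicate 1 or without PBS replicate 2 no gene passed, these markers included. Leukocyte markers summed to 6.48 and 8.20 CPM with nanoparticles and to 7.42 and 7.96 CPM with PBS, with PTPRC at 0 in all libraries. ITGAM made up most of these sums, at 5.5 and 7.2 CPM with nanoparticles and 6.7 and 7.1 CPM with PBS. Fibroblast and endothelial markers summed to between 1.77 and 2.12 CPM. None of the tested genes in these 2 lists passed the test (2 of 8 tested in each).

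Among the ligands, LIF was lower and CLCF1 higher in the nanoparticle libraries. The messenger RNAs of LIF, CLCF1 and IL11 share an AU-rich nonamer, TTATTTATT, in their 3' untranslated regions, an element known from unstable cytokine messages. It was searched on the transcript strand of the principal GENCODE 29 transcript of each gene and is shown for the members that hold it because LIF and CLCF1, which moved in opposite directions, both carry it. Each line is 1 site of 30 bases, 5' to 3', with the nonamer in capitals (overlapping copies run together), and with its GRCh38 position.
LIF, chr22:30240957-30240986, minus strand: ctccgggcccTTATTTATTatttaaacatt
CLCF1, chr11:67364235-67364264, minus strand: gtattaatatTTATTTATTtggagatgtta
IL11, chr19:55365946-55365975, minus strand: aagccagatcTTATTTATTTATTTATTtca
LIFR, chr5:38477352-38477381, minus strand: catgcccatcTTATTTATTctagaagaaaa
OSMR, chr5:38934830-38934859, plus strand: tattttacttTTATTTATTttttgagatga

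The nonamer occurred 2 times in the 3' untranslated region of LIF, 2 times in that of CLCF1, 6 times in that of IL11, 2 times in that of OSMR and 1 time in that of LIFR. It was not present in those of IL6, IL6ST, STAT3 and SOCS3. Of 19145 protein-coding genes with an annotated 3' untranslated region, 7.47% held it. Among regions within 10% of the member's own length, the share was 13.5% for LIF (3204 bases), 4.23% for CLCF1 (968 bases), 7.18% for IL11 (1618 bases), 11.6% for OSMR (2197 bases) and 25.3% for LIFR (6632 bases). The shorter motif ATTTA, which lies inside the nonamer, was found in all 9 members and in 64.2% of genes. A match describes the letters only and says nothing of binding or decay.

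LIF, leukaemia inhibitory factor, had 38.9 and 44.8 CPM in the nanoparticle libraries and 50.8 and 53.0 CPM in the PBS libraries. Both nanoparticle libraries lay below both PBS libraries, and nanoparticle replicate 1 was the lowest of the 4. LIF averaged 41.9 ± 4.19 CPM with nanoparticles and 51.9 ± 1.57 CPM with PBS (SD, n = 2 each). It fell by 19.4%, which is -0.31 ± 0.059 on the log2 scale (fold change ± its standard error; edgeR adjusted p = 0.00624, over all tested genes). In GRCh38 with GENCODE 29 models LIF lies on chromosome 22 from 30240447 to 30246851 on the minus strand. It shares 175 exon bases with AC004264.1 and 92 with LIF-AS1, both on the opposite strand. AC004264.1 had 18 and 13 counts with nanoparticles and 17 and 27 with PBS, against 972 to 1185 for LIF. Whether the counting used strand is not stated in the labels, so reads of such overlapping exons cannot be assigned with certainty.

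CLCF1 encodes cardiotrophin-like cytokine factor 1, a ligand that acts through the CNTF receptor together with gp130 and LIFR. It had 29.2 and 29.4 CPM in the nanoparticle libraries and 20.9 and 21.9 CPM in the PBS libraries. The libraries of each group lay close together and the groups were well apart. The mean was 29.3 ± 0.0969 CPM with nanoparticles and 21.4 ± 0.691 CPM with PBS (SD, n = 2 each), a rise of 36.7%, which is 0.45 ± 0.065 on the log2 scale (edgeR adjusted p = 0.000526). CLCF1 lies on chromosome 11 from 67364168 to 67374177 on the minus strand. The only annotated gene that shares its exons, AP003419.1, had no counts in any library.

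Because LIF and CLCF1 are read from the same library, their ratio does not depend on how libraries are scaled. Counts of CLCF1 over those of LIF were 0.752 and 0.656 in the nanoparticle libraries and 0.412 and 0.414 in the PBS libraries. The groups did not overlap. Per kilobase of transcript, CLCF1 stood at 15.9 and 15.9 CPM per kb with nanoparticles and 11.4 and 11.9 with PBS, and LIF at 9.80 and 11.3 with nanoparticles and 12.8 and 13.4 with PBS, so that CLCF1 was above LIF in both nanoparticle libraries and below it in both PBS libraries.

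Their calls in this comparison were known when the family was chosen, so the LIF and CLCF1 changes are a description and support nothing further. Of the 8 tested members, 1 passed higher and 1 passed lower, where 2.58% of 15778 tested genes passed in either direction, 1.75% higher and 0.83% lower. Neither LIF nor CLCF1 passed without PBS replicate 1 (adjusted p = 0.502 for both) or without PBS replicate 2 (0.474 for LIF and 0.47 for CLCF1), fits in which 0% of genes passed. Without nanoparticle replicate 1 LIF had a log2 fold change of -0.21 and did not pass (adjusted p = 0.108), in a fit where 1.24% of genes passed. CLCF1 passed without nanoparticle replicate 1 and without nanoparticle replicate 2, where 0.473% of genes passed.

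**Figure D1:**
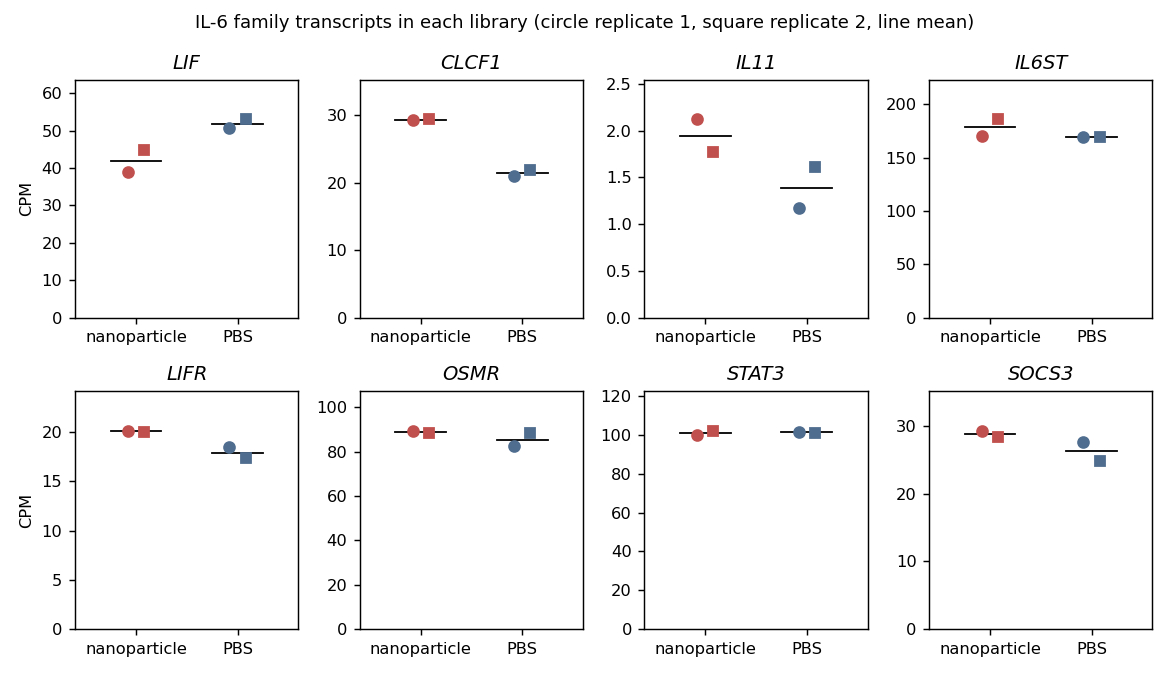
Level of 8 family members in each library, in CPM on an axis that starts at 0, with nanoparticle libraries in red and PBS libraries in blue (circle replicate 1, square replicate 2) and a line at each group's mean. LIF is lower and CLCF1 higher in both nanoparticle libraries, and the 4 libraries of STAT3 lie between 100.2 and 102 CPM.

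IL11, a ligand that pairs IL-11 receptor alpha with gp130, was scarce. It had 53 and 44 counts in the nanoparticle libraries and 26 and 36 counts in the PBS libraries. At 2.12 and 1.77 CPM with nanoparticles, against 1.17 and 1.61 CPM with PBS, the groups did not overlap. The log2 fold change was 0.48 ± 0.23 (SE; edgeR adjusted p = 0.301) and did not pass. It was 0.27 without PBS replicate 1 and 0.73 without PBS replicate 2. IL11 lies on chromosome 19 from 55364389 to 55370463.

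IL6, the ligand that names the family, was at or under the floor. It had 1 and 0 counts with nanoparticles and 0 and 1 counts with PBS, too few for a test or a fold. The chemokine gene CXCL2, another gene of the inflammatory kind, had 143 and 144 CPM with nanoparticles and 138 and 137 CPM with PBS (log2 0.059, SE 0.034, edgeR adjusted p = 0.408). IL6 lies on chromosome 7 from 22725884 to 22732002.

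Of 7 further ligands or ligand subunits of the family, none of 4 tested passed, and OSM, IL27 and IL31 had no counts in any library. The 4 tested genes all had fold changes below 0, with a median log2 of -0.26, against 0.00056 over all tested genes. EBI3, a subunit of IL-27, had 12 and 4 counts with nanoparticles and 13 and 16 with PBS (log2 -1.01, SE 0.45, adjusted p = 0.256). CNTF had 27 and 26 counts with nanoparticles and 25 and 32 with PBS (log2 -0.27, SE 0.26, adjusted p = 0.68). The approximate 95% interval of CNTF, from -0.78 to 0.25, spanned 0, whereas that of EBI3 ran from -1.89 to -0.12 before adjustment over all genes. The EBI3 value rests on few counts, and it was -1.98 without nanoparticle replicate 1 and -0.43 without nanoparticle replicate 2.

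The shared receptor chains were expressed in every library. IL6ST, which encodes gp130, had 171 and 186 CPM in the nanoparticle libraries and 169.7 and 169 CPM in the PBS libraries. Nanoparticle replicate 1 was barely above the PBS libraries and replicate 2 was higher. The log2 fold change was 0.072 ± 0.038 (SE; edgeR adjusted p = 0.363). LIFR had 20.2 and 20.1 CPM with nanoparticles and 18.5 and 17.4 CPM with PBS, and its groups did not overlap (log2 0.16, SE 0.074, adjusted p = 0.257). OSMR had 89.4 and 88.4 CPM with nanoparticles and 82.3 and 88.3 CPM with PBS (log2 0.059, SE 0.042, adjusted p = 0.515). The lowest nanoparticle library and the highest PBS library of OSMR almost coincided.

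None of the receptor chains passed the test, and their approximate 95% intervals ran from -0.0036 to 0.15 for IL6ST, from 0.02 to 0.31 for LIFR and from -0.023 to 0.14 for OSMR on the log2 scale. Within a library LIFR counts were 0.226 and 0.227 of OSMR counts with nanoparticles and 0.224 and 0.197 with PBS. All 3 genes lie on chromosome 5, LIFR from 38474963 to 38608354 on the minus strand, OSMR from 38845858 to 38945596 on the plus strand and IL6ST from 55935095 to 55994993 on the minus strand. OSMR shares 229 exon bases with RICTOR on the opposite strand, and LIFR shares 629 with LIFR-AS1, which had between 31 and 44 counts.

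The other receptor chains of the family were uneven in level. CNTFR, the receptor through which CLCF1 acts, had 2 and 1 counts with nanoparticles and 2 and 2 with PBS, at or under the floor. IL11RA had 9 and 12 counts with nanoparticles and 5 and 16 with PBS. IL6R had 3.60 and 4.06 CPM with nanoparticles and 4.68 and 3.89 CPM with PBS (log2 -0.16, SE 0.15, edgeR adjusted p = 0.652). IL27RA was higher in level at 58.2 and 53.3 CPM with nanoparticles and 55.9 and 57.0 CPM with PBS (log2 -0.018, SE 0.05, adjusted p = 0.902), as was IL31RA at 55.4 and 57.3 CPM with nanoparticles and 58.3 and 55.0 CPM with PBS. None of 4 tested genes of this group of 5 passed, and their median log2 fold change was -0.089.

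STAT3, the transcription factor of the pathway, was level across the libraries, with 100.2 and 102 CPM with nanoparticles and 102 and 101 CPM with PBS. The log2 fold change was -0.0038 ± 0.037 (SE; edgeR adjusted p = 0.975), and its interval ran from -0.076 to 0.069. The gene lies on chromosome 17 from 42313324 to 42388568. Messenger RNA says nothing of STAT3 phosphorylation, by which the factor is activated.

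SOCS3, the feedback inhibitor that STAT3 induces, had 29.3 and 28.3 CPM in the nanoparticle libraries and 27.6 and 24.8 CPM in the PBS libraries. Both nanoparticle libraries were above both PBS libraries. The log2 fold change was 0.14 ± 0.067 (SE; edgeR adjusted p = 0.312), and the approximate interval ran from 0.0048 to 0.27. This interval is narrower than the test implies, because the unadjusted edgeR p of 0.0555 was not under the threshold either. It therefore does not show a rise of SOCS3. SOCS3 lies on chromosome 17 from 78356778 to 78360077. In 6 of the 8 tested members both nanoparticle libraries were above both PBS libraries and in 1 both were below, where 23.7% of all tested genes were separated upward and 23.2% downward. The 6 include CLCF1, whose call was known when the family was chosen. They also include IL6ST and OSMR, separated by small margins (170.55 against 169.65 CPM and 88.35 against 88.28 CPM). These separations take no account of transcript length, treated below.

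**Figure D2:**
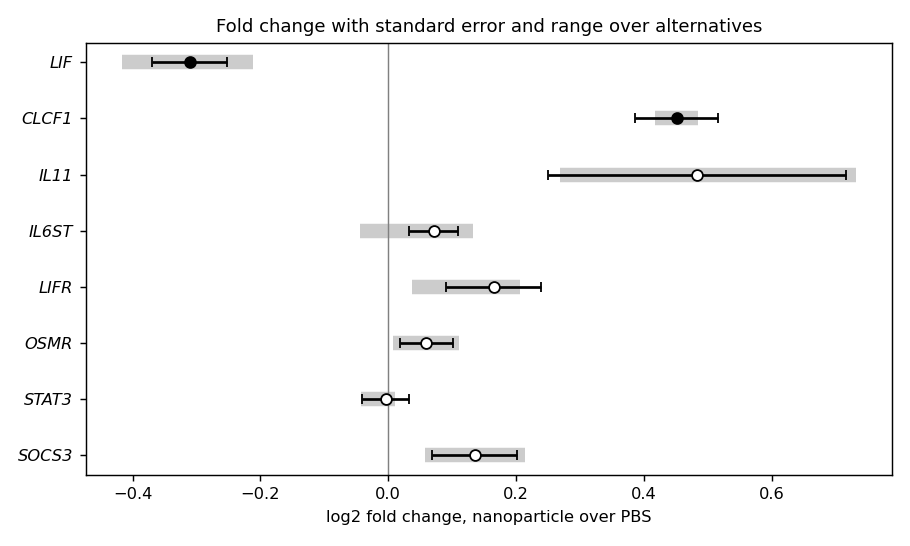
Log2 fold change of nanoparticle over PBS for 8 family members, with standard errors as bars, filled points for the genes that passed an adjusted p of 0.05, and grey bands for the range over the alternatives in processing. LIF runs from -0.42 to -0.21 and CLCF1 from 0.42 to 0.48 over the alternatives, while IL6ST and STAT3 cross 0.

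Levels within the family were compared per kilobase of principal transcript. STAT3 was highest at 20.0 CPM per kb with nanoparticles and 20.1 with PBS, followed by IL6ST at 19.7 with nanoparticles and 18.7 with PBS. In the nanoparticle libraries IL6ST at 18.8 and 20.5 CPM per kb overlapped STAT3 at 19.8 and 20.2, and CLCF1 at 15.9 and 15.9 lay just below OSMR at 16.1 and 15.95. LIF and SOCS3 also overlapped in the nanoparticle libraries, at 9.80 and 11.3 for LIF and 10.7 and 10.4 for SOCS3. In the PBS libraries the order was STAT3, IL6ST, OSMR, LIF, CLCF1 and SOCS3, and no neighbours in it overlapped. LIFR at 1.99 with nanoparticles and 1.78 with PBS, and IL11 at 0.852 with nanoparticles and 0.609 with PBS, were well below these, and IL6 was last.

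Fold changes in this experiment went with transcript length, which bears on the family because the receptor messages are long. Over genes above 5 CPM placed in 10 bins of length, the median log2 fold change was -0.064 in the shortest bin and 0.082 in the longest. IL6ST (9057 bases) and LIFR (10089 bases) fell in the longest bin, where they were -0.011 and 0.082 away from the median. OSMR (5539 bases) was 0.0094 and STAT3 (5047 bases) was -0.035 away from the median of their bins. CLCF1 (1844 bases) was 0.49 above and LIF (3969 bases) was -0.33 away from genes of like length, and SOCS3 (2734 bases) was 0.14 above them. After each library's length trend was removed, LIF (log2 -0.33, adjusted p = 0.00618) and CLCF1 (log2 0.48, adjusted p = 0.00066) passed, in a fit where 1.26% of genes passed. The log2 fold change of IL6ST then was -0.014 and that of LIFR was 0.07.

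**Figure D3:**
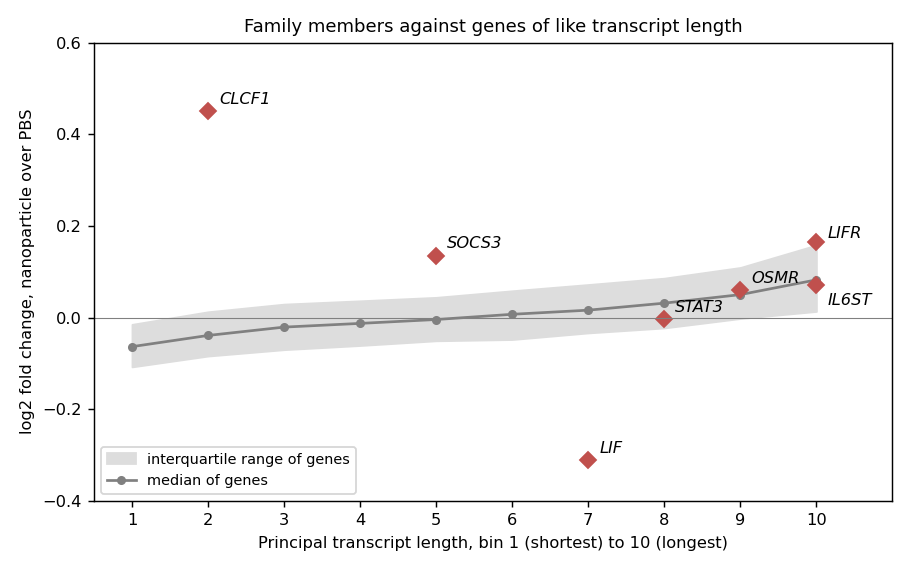
Log2 fold change of nanoparticle over PBS against transcript length in 10 bins from shortest to longest, with the median (line) and interquartile range (band) of genes above 5 CPM and the 7 family members at that level as diamonds. IL6ST, OSMR and STAT3 lie within the band of their bins, LIFR and SOCS3 lie above it, and CLCF1 and LIF lie farthest from it on opposite sides.

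The pathway lists outside the family also hold other ligands, receptors, secreted cytokines and mRNA stability factors. Together 82 of their 104 genes could be tested, and 1 passed higher and 3 lower, where 1.75% of all tested genes passed higher. The 1 that rose was RC3H1, of the list of mRNA stability factors. The 3 that fell were in the list of STAT3 targets, of which 25 of 27 could be tested, beside 0.83% of all tested genes that passed lower. No test of a list was made. CCND1, which encodes cyclin D1, fell to 453 and 460 CPM in the nanoparticle libraries, against 531 and 518 CPM in the PBS libraries (log2 -0.20, SE 0.027, edgeR adjusted p = 0.000259). MYC, a growth-promoting transcription factor, had 222 and 232 CPM with nanoparticles and 243 and 261 CPM with PBS (log2 -0.15, SE 0.037, adjusted p = 0.0296). JUNB, a subunit of the AP-1 factor, had 60.9 and 55.3 CPM with nanoparticles and 66.6 and 66.0 CPM with PBS (log2 -0.19, SE 0.049, adjusted p = 0.0413). In all 3 genes both nanoparticle libraries lay below both PBS libraries, as in 23.2% of all tested genes. The 3 were named because they passed lower, so this separation adds no support.

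The other 22 tested STAT3 targets did not pass, and the list as a whole had 9 genes above 0 and 16 below, with a median log2 fold change of -0.032. CCND1, MYC and JUNB are also targets of other growth signals. With the length trend removed CCND1 passed (log2 -0.23, adjusted p = 0.000134), whereas MYC (log2 -0.11, adjusted p = 0.188) and JUNB (log2 -0.17, 0.0996) did not. None of the 3 passed without either PBS library, where no gene passed. MYC also did not pass without nanoparticle replicate 1 (adjusted p = 0.226) and without nanoparticle replicate 2 (0.151), nor did JUNB without nanoparticle replicate 2 (0.44).

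The signalling genes between receptor and STAT3 did not pass. Among JAK kinases and other STATs none of 7 tested genes of 8 passed, with a median log2 fold change of -0.0086. JAK2, which binds gp130-type receptors, had 18.4 and 18.1 CPM with nanoparticles and 15.1 and 16.2 CPM with PBS (log2 0.22, SE 0.078, edgeR adjusted p = 0.147). STAT2 had a log2 fold change of 0.087 (SE 0.06, adjusted p = 0.51). JAK1, the main kinase of gp130, had 143 and 158 CPM with nanoparticles and 141 and 151 CPM with PBS, and its groups overlapped.

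The 6 adapters that link gp130 to RAS and PI3 kinase all had fold changes above 0, and none passed (median log2 0.055). Over all tested genes 7922 of 15778 were above 0. These values are before the length trend was removed. GAB2, a docking adapter, had 14.4 and 14.6 CPM with nanoparticles and 11.4 and 12.7 CPM with PBS (log2 0.26, SE 0.089, edgeR adjusted p = 0.126). SOS1, the RAS exchange factor, had a log2 fold change of 0.15 (SE 0.057, adjusted p = 0.163), and of 0.073 after length removal.

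Of 15 JAK-STAT inhibitors other than SOCS3, none of 14 tested passed. Before length removal 12 were above 0, beside 7922 of 15778 tested genes, and the median log2 fold change was 0.11. SOCS6 had 37.5 and 37.9 CPM with nanoparticles and 35.5 and 31.4 CPM with PBS (log2 0.17, SE 0.061, edgeR adjusted p = 0.145). SOCS4 had 33.4 and 34.8 CPM with nanoparticles and 29.2 and 31.6 CPM with PBS (log2 0.17, SE 0.061, adjusted p = 0.156). After length removal the log2 fold changes were 0.12 for SOCS6 and 0.11 for SOCS4.

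Secreted cytokines and chemokines outside the family were mostly scarce, and 11 of 25 could be tested. None passed, and their median log2 fold change was 0.059. CXCL1 had 11.8 and 12.7 CPM with nanoparticles and 9.62 and 11.3 CPM with PBS (log2 0.23, SE 0.099, edgeR adjusted p = 0.234). CXCL16 had 7.16 and 4.90 CPM with nanoparticles and 4.68 and 5.28 CPM with PBS, overlapping groups (log2 0.28, SE 0.16, adjusted p = 0.392).

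Among 12 RNA-binding factors that act on cytokine messages, RC3H1 passed. RC3H1 encodes roquin-1, which promotes decay of cytokine mRNAs through stem-loop elements. It rose to 38.4 and 39.6 CPM in the nanoparticle libraries, against 33.3 and 30.7 CPM in the PBS libraries (log2 0.29, SE 0.058, edgeR adjusted p = 0.0101). The log2 fold change was 0.18 with the length trend removed (adjusted p = 0.142). RC3H1 did not pass without nanoparticle replicate 2 (adjusted p = 0.161) and without PBS replicate 1 (0.502) or PBS replicate 2 (0.47). ZFP36, which encodes the AU-rich element binding protein tristetraprolin, had 19.2 and 17.3 CPM with nanoparticles and 15.4 and 16.2 CPM with PBS (log2 0.21, SE 0.081, adjusted p = 0.192), and was named after its values were seen. The list had 8 genes above 0 and 4 below, with a median of 0.053. The 4 below were HNRNPD (log2 -0.077, edgeR adjusted p = 0.155), ELAVL1 (log2 -0.07, 0.273), KHSRP (log2 -0.046, 0.427) and ZFP36L2 (log2 -0.026, 0.841). None of them passed.

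**Figure D4:**
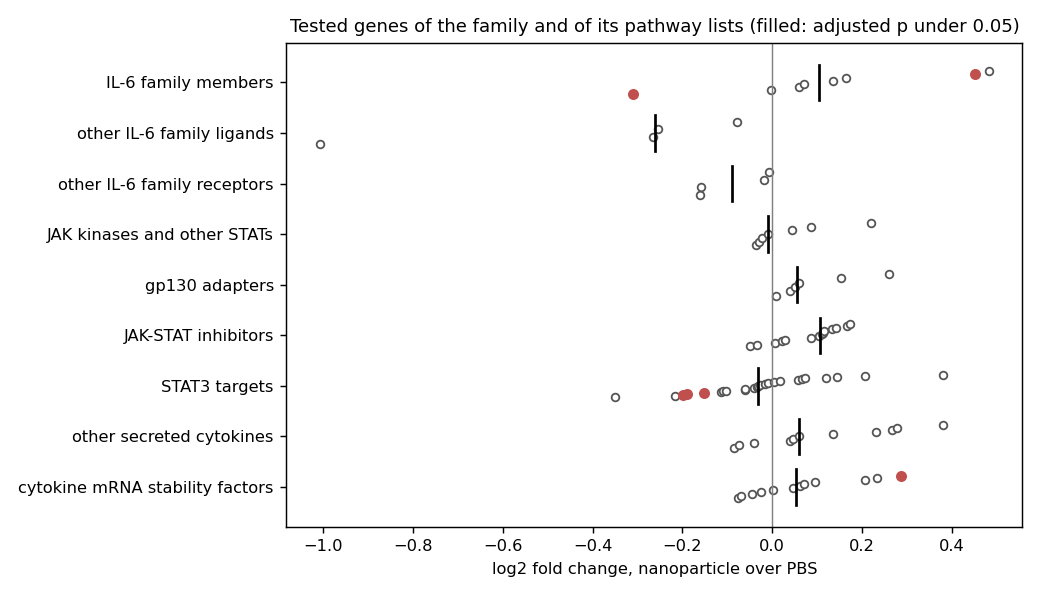
Log2 fold change of nanoparticle over PBS for each tested gene of the IL-6 family and of 8 pathway lists, with a vertical bar at each list's median and filled points for genes past an adjusted p of 0.05. The filled points are LIF and CLCF1 in the family, CCND1, MYC and JUNB among STAT3 targets and RC3H1 among mRNA stability factors.

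The genes whose profile over the 4 libraries came nearest to that of a called ligand were found by the Euclidean distance between log2 CPM profiles, each centred on its own mean, among 10942 genes of at least 5 CPM. For LIF they were RHBDF1 (distance 0.023), ADGRB1 (0.046) and the pseudogene PMS2P5 (0.062). For CLCF1 they were ZBTB37 (0.044), KMT2C (0.046) and TXNRD1 (0.05). With 4 libraries such likeness is a description of the profile only. RHBDF1, nearest to LIF, had 8.48 and 9.85 CPM with nanoparticles and 10.9 and 11.6 CPM with PBS.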

How the data were processed

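The values deposited are raw read counts, with a file of Ensembl gene rows for each library. The submitters' processing notes list HTSeq 2.0.2, STAR 2.7.6a, Picard, cutadapt 3.5 and bcl2fastq 2.20 on build GRCh38. Input was 300 ng of total RNA and the kit was stranded, per the labels' protocols. Neither the annotation release nor the strand setting is stated in those sources. Rows for reads given to no gene were left out; they held 14.3% and 13.7% of reads in the nanoparticle libraries and 14.8% and 14.5% in the PBS libraries (Wilson 95% half-width at most 0.0136 points, counting error only). Replicates of a group differed by more than sampling noise (chi-square per degree of freedom 1.95 and 1.78), and each counted as 1 sample. The coefficient of variation estimated by edgeR was 2.46%. These values do not show that replicates came from separate cultures.

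Symbols came from a gene name table for 61369 rows; models, lengths and 3' untranslated regions came from GENCODE 29. Genes were filtered with filterByExpr, scaled by TMM and tested, nanoparticle against PBS, with edgeR 4.0.16 in R 4.3.3 (glmQLFit, glmQLFTest, two-sided, Benjamini-Hochberg over all tested genes, threshold 0.05), checked on simulated counts. Standard errors came from the fold change and its F statistic. Approximate intervals took a normal quantile of these standard errors, which makes them narrower than the F test implies. A fold change above 0 means higher with nanoparticles. Length trends were robust splines with 4 degrees of freedom (MASS 7.3.60.0.1) over genes above 5 CPM, removed as offsets. Alternatives were RLE, upper-quartile and total count scaling, no filter, a minimum mean of 50 counts, DESeq2 1.42.0 without independent filtering, the replicate number as a block, length or length and GC removal, and leaving out each library.

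The members, lists and alternatives were chosen with earlier results of these data known. Named were all members and, per pathway list, genes past the threshold or else the 2 with the smallest p. Genes added to show a receptor, a defining kinase or a level (CNTFR, IL11RA, IL31RA, JAK1, CXCL2 and ZFP36) were chosen after their values were seen. HNRNPD, ELAVL1, KHSRP and ZFP36L2 were named because their fold changes were below 0. An item that the lists cover is not reported here. Figures used matplotlib 3.10.9.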

Additional observations from a re-analysis of the deposited data

How the results depend on the processing

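Of 15778 tested genes 407 passed, and 2 family members and 4 pathway genes did. Without a low-count filter 0 genes, 0 members and 0 pathway genes passed (lowest edgeR adjusted p = 0.544; by unadjusted p 2297 genes were under 0.05). DESeq2 called 90 genes and 1 pathway gene, and the fit with length removed called 199 genes and 1 pathway gene. With length and GC trends removed 1 pathway gene passed. Leaving out 1 library gave 0 to 200 genes, 0 to 2 members and 0 to 3 pathway genes; without either PBS library none passed (by unadjusted p 1562 and 1672 genes were under 0.05). LIF passed in 9 and CLCF1 in 10 of 13 alternatives, with no change of sign. IL6ST turned to -0.014 with length removed and -0.045 with length and GC removed. STAT3 turned to 0.00077 with total count scaling, 0.0057 without a filter; leaving out 1 library it ran from -0.018 to 0.0103. Leaving out 1 library, IL27RA ran from -0.083 to 0.044 and CXCL16 from -0.022 to 0.52. The cause was not tested. With the replicate number as a block 759 genes and 7 pathway genes passed. Same-numbered libraries did not deviate together across genes (correlation 0.036). With only 1 replicate difference per group this cannot decide whether the numbers mark a pairing, and the labels do not say. At their low counts IL11 and EBI3 had standard errors of 0.23 and 0.45 on the log2 scale, which limits the precision of their fold changes.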
